A study of Homo sapiens with 12 samples.

Results

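Cholesterol and fatty acids are built from acetyl-CoA by 2 branching routes, and the genes for these routes are usually switched on together. The group described here holds 30 such genes, chosen by name for their place in these routes, with earlier results of these data known: enzymes of the mevalonate and sterol pathways, the proteins that sense sterol and drive the pathway, and enzymes of fatty acid synthesis. All 30 were found, out of 11940 genes listed in both kinds of sample. Read counts came from exosomes, the small vesicles that cells secrete, and from the AC16 cells that released them, AC16 being an established human line made by fusing ventricular cardiomyocytes with transformed fibroblasts. There were 4 groups of 3 libraries: exosomes labelled Ang, exosomes labelled Con, cells labelled Ang and cells labelled Con, and the labels do not spell out either word. The series' stated purpose was the study of small RNAs in exosomes of hypertrophic cardiomyocytes.

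Sterol synthesis runs from acetyl-CoA through mevalonate to farnesyl diphosphate, then through squalene and lanosterol to cholesterol. When the endoplasmic reticulum (ER) membrane is poor in sterol, the escort protein SCAP carries the precursors of the factors encoded by SREBF1 and SREBF2 to the Golgi, where they are cut free to enter the nucleus and turn on their target genes. INSIG1 holds SCAP back when sterol is plentiful. Fatty acid synthesis uses the same acetyl-CoA and shares these factors.

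Exosome and cell libraries differed in more than their source. Per the labels' protocols, exosome RNA was extracted and made into libraries with other kits than cell RNA, so compartment and kit cannot be told apart. Exosome libraries held 535442 to 587783 gene reads in Ang and 717263 to 745311 in Con, and cell libraries held 9202471 to 10623090 in Ang and 9442962 to 11212674 in Con. Nothing in the labels ties a library to a culture of its own, so the spread behind each p-value may be technical. Of 20 cardiomyocyte markers, 4 were listed in exosomes (25.1 to 103 summed CPM, read counts scaled to library size) and 13 in cells (114 to 133 CPM), while all 14 fibroblast and stroma markers were listed in both (8330 to 9710 CPM in exosomes and 9610 to 11300 CPM in cells). Of the myosin genes in that list, MYH6, MYH7, MYL2 and MYL7 were listed in neither compartment, and MYL3 only in cells (0 to 8 reads per library). The cardiomyocyte markers with the most reads in cells were TTN (709 to 935 reads per library) and GATA4 (239 to 335 reads). In such bulk libraries, fewer vesicles or cells that carry an RNA and less of that RNA in each cannot be told apart.

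The synthesis genes took a smaller share of the reads in exosomes than in cells. Summed over the 30 genes, they made up 0.229 to 0.275% of the gene reads in Ang exosomes and 0.272 to 0.28% in Con exosomes, against 1.11 to 1.12% in Ang cells and 1.13 to 1.15% in Con cells. The mean share was 0.265 ± 0.0193% (SD, n = 6) in exosomes and 1.13 ± 0.0163% (SD, n = 6) in cells, and no exosome library came near a cell library. Without SCD, the most uneven gene of the group in exosomes, the means were 0.258 ± 0.0187% (SD, n = 6) in exosomes and 0.931 ± 0.016% (SD, n = 6) in cells.

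**Figure D1:**
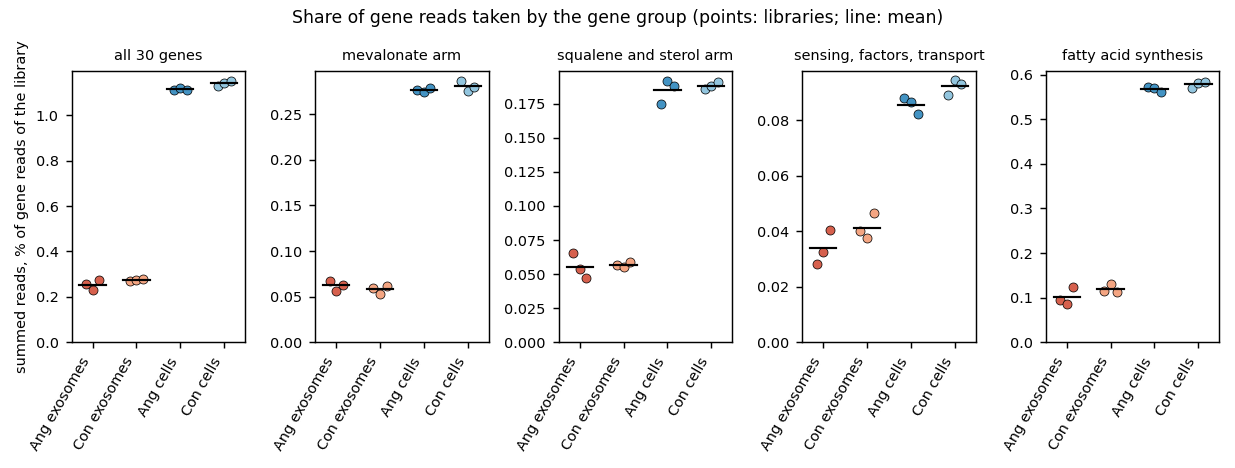
Summed reads of the gene group as a percentage of the gene reads of each library, for all 30 genes and for each of the 4 roles. Points are libraries and lines are the means of 3 libraries, each panel has its own scale from 0, and all exosome points lie below all cell points in every panel.

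Gene by gene, 22 of the 30 were lower in exosomes than in cells, 1 was higher and 7 did not pass the threshold (edgeR's quasi-likelihood test, adjusted p under 0.05 by the Benjamini-Hochberg method over 11811 genes). Of all genes tested, 19.5% were called lower and 17.6% higher, 37.1% in all. The median of the 30 was 2.57-fold lower (log2 -1.36), against a median of log2 -0.15 over all genes. Scaling to raw totals in place of the trimmed mean moved the median of all genes to log2 -0.36 and that of the 30 to log2 -1.58, and split the called genes into 1546 higher and 3318 lower, against 2082 higher and 2298 lower with the trimmed mean. In 20 of the 30 genes every exosome library lay below every cell library, which held for 13.1% of all genes tested. In none did every exosome library lie above every cell library, which held for 10.1% of all genes. Among the 4573 genes with a mean of at least 50 CPM in cells, 29.5% were lower and 19.8% higher. The group had 26 genes at that level, and 22 of them were lower and 0 higher (edgeR). With cell counts thinned to exosome depth, 21 of the 28 genes that could be tested were called lower, against 16.7% of 9743 genes.

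**Figure D2:**
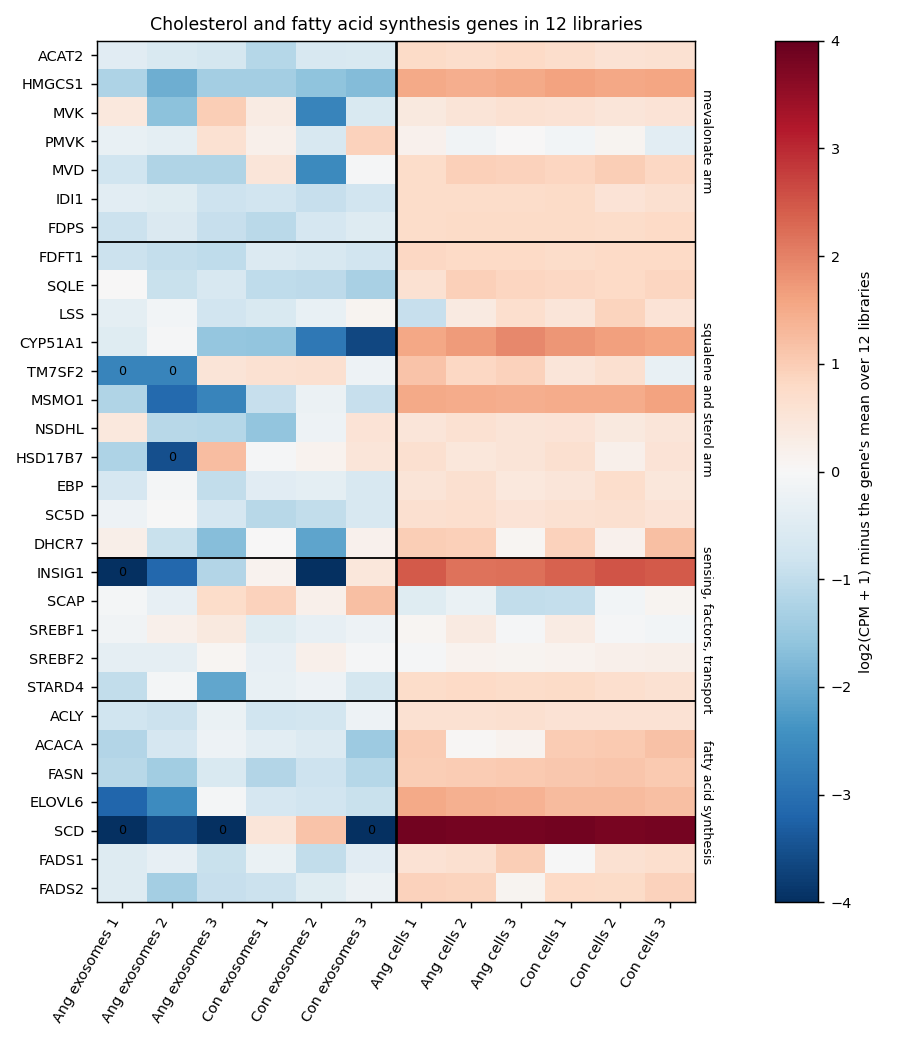
Level of each gene in each library as log2(CPM + 1) minus the mean of that gene over the 12 libraries, with colours ending at -4 and 4. Columns are libraries with exosomes on the left, rows follow the 4 roles, and a 0 marks a library with no read. Exosome columns are mostly blue, while SCAP runs the other way and SREBF1 and SREBF2 are pale throughout.

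Promoter sequence is shown for 4 genes of the group, which are not its most extreme ones. HMGCS1 and INSIG1 were much lower in exosomes, but SCD (log2 -6.37) was lower than either and CYP51A1 (log2 -3.28) lower than HMGCS1 (log2 -3.06). SCAP was the gene that was higher. SREBF2 encodes a factor of the pathway, and its window alone, among those read, held the classical sterol element. Each printed stretch is 150 bases from 200 to 51 bases before the RefSeq start (GRCh38.p14), read 5′ to 3′ on the strand of the gene. RefSeq starts differ from the ends of the gene spans that GENCODE gives: the stretch of SCAP lies inside its span, and those of HMGCS1 and INSIG1 cross into theirs. HMGCS1 has 2 RefSeq windows, and the one farther upstream is shown. Capitals mark the sterol element (TCACNCCAC) and the NF-Y box (CCAAT or its reverse complement ATTGG). NF-Y is a factor that is known to act beside the sterol factors.
SREBF2, chr22:41832905-41833054, plus strand: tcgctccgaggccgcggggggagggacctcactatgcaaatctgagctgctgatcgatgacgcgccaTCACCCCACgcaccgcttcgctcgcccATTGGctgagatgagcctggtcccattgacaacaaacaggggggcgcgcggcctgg
HMGCS1, chr5:43313463-43313612, minus strand: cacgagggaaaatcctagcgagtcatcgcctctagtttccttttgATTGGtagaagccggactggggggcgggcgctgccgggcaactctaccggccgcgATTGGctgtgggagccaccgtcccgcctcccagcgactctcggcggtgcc
INSIG1, chr7:155297678-155297827, plus strand: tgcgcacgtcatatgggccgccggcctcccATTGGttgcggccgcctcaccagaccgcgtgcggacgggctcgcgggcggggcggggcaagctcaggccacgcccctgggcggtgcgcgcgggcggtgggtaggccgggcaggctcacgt
SCAP, chr3:47475992-47476141, minus strand: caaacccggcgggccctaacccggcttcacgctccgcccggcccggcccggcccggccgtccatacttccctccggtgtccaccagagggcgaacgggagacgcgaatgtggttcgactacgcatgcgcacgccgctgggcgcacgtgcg

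The stretch of HMGCS1 held the NF-Y box at 2 places, those of INSIG1 and SREBF2 at 1 each, and that of SCAP at none. Over whole windows of 250 bases before to 50 after the start, searched on both strands, 26 of the 30 genes could be read. The NF-Y box CCAAT was found in 20 of the 26 (76.9%), against 39.7% of 27305 genes. Those 27305 genes include many that were not listed in these samples, and the share among listed genes alone is not given. The Sp1 box GGGCGG was found in 25 of the 26 (96.2%), against 48.3% of genes, and the sterol element TCACNCCAC in 1, SREBF2, against 1.39% of genes. In the printed stretches no match overlapped a match of another motif, and a match is one of letters only. Between exosomes and cells, the 20 genes with the NF-Y box had a median of log2 -1.30 and the 6 without it a median of log2 -0.68. The ranges overlapped (-6.37 to -0.25 and -3.28 to 0.93). Of the 20 with the box, 15 were called. Of the 6 without it, 4 were called: CYP51A1, ELOVL6 and FADS1 lower and SCAP higher. MVK, TM7SF2, NSDHL, HSD17B7 and SREBF2 held the box and were not called.

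The mevalonate arm, which makes the building blocks of all isoprenoids, was lower in exosomes in 5 of its 7 genes, with a median of log2 -1.40. ACAT2, which joins acetyl-CoA units in the cytosol, had 105 to 169 CPM in exosomes (median 148) and 348 to 405 CPM in cells (median 378). HMGCS1 (ENSG00000112972, chr5:43289395-43313512, minus strand, GRCh38 as in GENCODE 29) makes hydroxymethylglutaryl-CoA early in the pathway. It had 118 to 194 CPM in exosomes (median 165) and 1270 to 1390 CPM in cells (median 1330), so that the highest exosome library stayed far below the lowest cell library. HMGCS1 was 8.32-fold lower (log2 -3.06, SE 0.122, adjusted p = 2.74e-09, edgeR), and ACAT2 was 2.61-fold lower (log2 -1.38, SE 0.115). Genes on the other strand overlap 52.3% of the exon length of ACAT2, so reads of both may be mixed in its count. Further along, IDI1 isomerises isopentenyl diphosphate and FDPS joins isoprene units into farnesyl diphosphate. IDI1 was 2.64-fold lower, with 92.5 to 130 CPM in exosomes and 260 to 302 CPM in cells. FDPS was 2.89-fold lower, with 125 to 185 CPM in exosomes and 442 to 464 CPM in cells.

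The kinases and the decarboxylase between these steps were less even in exosomes. MVD, the decarboxylase, had 7.34 to 67.6 CPM in exosomes (median 23.7) and 80.5 to 95.1 CPM in cells (median 89.3), and fell 2.94-fold (log2 -1.55, SE 0.342). Its groups did not overlap, although the exosome libraries ranged widely. MVK, the mevalonate kinase, had 5.87 to 84.1 CPM in exosomes and 55.4 to 64.4 CPM in cells, so that exosomes spanned the cell range, and it did not pass the threshold (log2 -0.67, SE 0.408, edgeR adjusted p = 0.218). PMVK, the kinase that follows, was rare in both, with 4.4 to 15 CPM in exosomes and 5.33 to 8.46 CPM in cells (log2 0.25, SE 0.383, edgeR adjusted p = 0.634).

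Of the 11 genes that lead from farnesyl diphosphate to cholesterol, 8 were lower in exosomes and 0 higher, with a median of log2 -1.22. FDFT1, the squalene synthase (ENSG00000079459), had 196 to 273 CPM in exosomes (median 225) and 666 to 699 CPM in cells (median 693), 3.02-fold lower with the smallest SE of the group (log2 -1.59, SE 0.0816). SQLE, which oxidises squalene, had 61.6 to 157 CPM in exosomes and 234 to 297 CPM in cells, 3.05-fold lower. The largest differences of this arm were in CYP51A1 and MSMO1, which are among the enzymes that demethylate lanosterol and its products. CYP51A1 (ENSG00000001630, chr7:92112151-92134803) had 3 to 47.8 CPM in exosomes (median 15.9) and 146 to 187 CPM in cells (median 159), and fell 9.74-fold (log2 -3.28, SE 0.302). The difference was log2 -2.32 in Ang libraries alone and log2 -4.25 in Con libraries alone. Here and below, such values are contrasts in the fit to all 12 libraries, so filter, scaling and spread came from all of them. MSMO1, which removes the next methyl groups, had 5.51 to 47 CPM in exosomes (median 25.9) and 153 to 170 CPM in cells (median 156), and fell 7.68-fold (log2 -2.94, SE 0.256), with log2 -3.68 in Ang libraries alone and log2 -2.21 in Con libraries alone. Both genes had 32 reads or fewer in each exosome library. Other genes on the same strand cover 79.4% of the exon length of CYP51A1, so its reads may not all be its own.

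The other enzymes of this arm had smaller fitted differences. EBP, a sterol isomerase, fell 2.08-fold (34 to 64.3 CPM in exosomes and 92.1 to 112 CPM in cells), and SC5D, a sterol desaturase, fell 2.33-fold (20.1 to 44.1 CPM in exosomes and 66.1 to 71.8 CPM in cells). DHCR7, which makes cholesterol in the last step of one branch, had 10.3 to 56.3 CPM in exosomes and 50.8 to 113 CPM in cells. LSS, which closes squalene into lanosterol, had 56.1 to 105 CPM in exosomes and 50.7 to 178 CPM in cells. These last pairs of ranges overlap. DHCR7 (log2 -1.26, SE 0.39, edgeR adjusted p = 0.0234) and LSS (log2 -0.73, SE 0.257, edgeR adjusted p = 0.0408) passed the threshold narrowly, and each lost the call when single libraries were left out. DHCR7 lost it without Con cell replicate 3, Ang cell replicate 1 or 2, or Ang exosome replicate 2 or 3 (highest edgeR adjusted p = 0.0607). LSS lost it without any 1 library other than Ang cell replicate 1, Con exosome replicate 3 or Ang exosome replicate 2 (highest edgeR adjusted p = 0.124). NSDHL, a sterol dehydrogenase, did not pass (13 to 60.1 CPM in exosomes and 53.8 to 62 CPM in cells, edgeR adjusted p = 0.0712), though it did without Con exosome replicate 3 or Ang exosome replicate 1. TM7SF2 and HSD17B7, 2 sterol reductases, were at 12.9 CPM or less and 26 CPM or less in every library. Without Ang exosome replicate 3 both were called lower, TM7SF2 at log2 -4.53 and HSD17B7 at log2 -1.67, against log2 -1.02 and -0.49 with it. Ang exosome replicates 1 and 2 held 0 and 0 reads of TM7SF2 and 2 and 0 reads of HSD17B7, so these sizes are uncertain.

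The regulators did not move as a block, with 2 lower, 1 higher and 2 not past the threshold. INSIG1, the sterol sensor whose promoter is printed above (ENSG00000186480, chr7:155297776-155310235), had 0, 4 and 16 reads in Ang exosomes and 56, 2 and 67 reads in Con exosomes, against 3961, 3631 and 3873 reads in Ang cells and 3803, 4428 and 4903 reads in Con cells. A count of 0 allows up to 3 reads. Cell libraries were alike, whereas exosome libraries of 1 group differed by more than the groups did. It was 13.5-fold lower (log2 -3.76, SE 0.62, edgeR adjusted p = 0.00073), and log2 -4.65 without Ang exosome replicate 3. In Ang libraries alone it was log2 -4.79 and in Con libraries alone log2 -2.72. STARD4, which carries sterol through the cytosol, fell 2.53-fold (14 to 58.8 CPM in exosomes and 94.9 to 109 CPM in cells).

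SCAP, the escort of the factors (ENSG00000114650, chr3:47413694-47477126), was the one gene of the group that was higher in exosomes. It had 34.9, 29.4 and 62.1 CPM in Ang exosomes and 70.5, 42.6 and 85.6 CPM in Con exosomes, against 26.2, 30.2 and 18.3 CPM in Ang cells and 18.4, 34.4 and 39.4 CPM in Con cells. The groups overlapped, since 2 Ang exosome libraries lay within the range of the cells. SCAP was 1.91-fold higher (log2 0.93, SE 0.281, edgeR adjusted p = 0.0206), and lost the call with raw totals (edgeR adjusted p = 0.0588), without Con exosome replicate 3 (adjusted p = 0.0533) and without Ang exosome replicate 3 (adjusted p = 0.0656). The factor genes themselves did not pass. SREBF1 had 54.7 to 100 CPM in exosomes and 70.7 to 98.3 CPM in cells (log2 -0.19, SE 0.163, edgeR adjusted p = 0.374). SREBF2 had 169 to 247 CPM in exosomes and 210 to 255 CPM in cells (log2 -0.25, SE 0.125, edgeR adjusted p = 0.141), although it was called lower with raw totals scaling (log2 -0.46) and without Ang exosome replicate 3 (log2 -0.33).

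**Figure D3:**
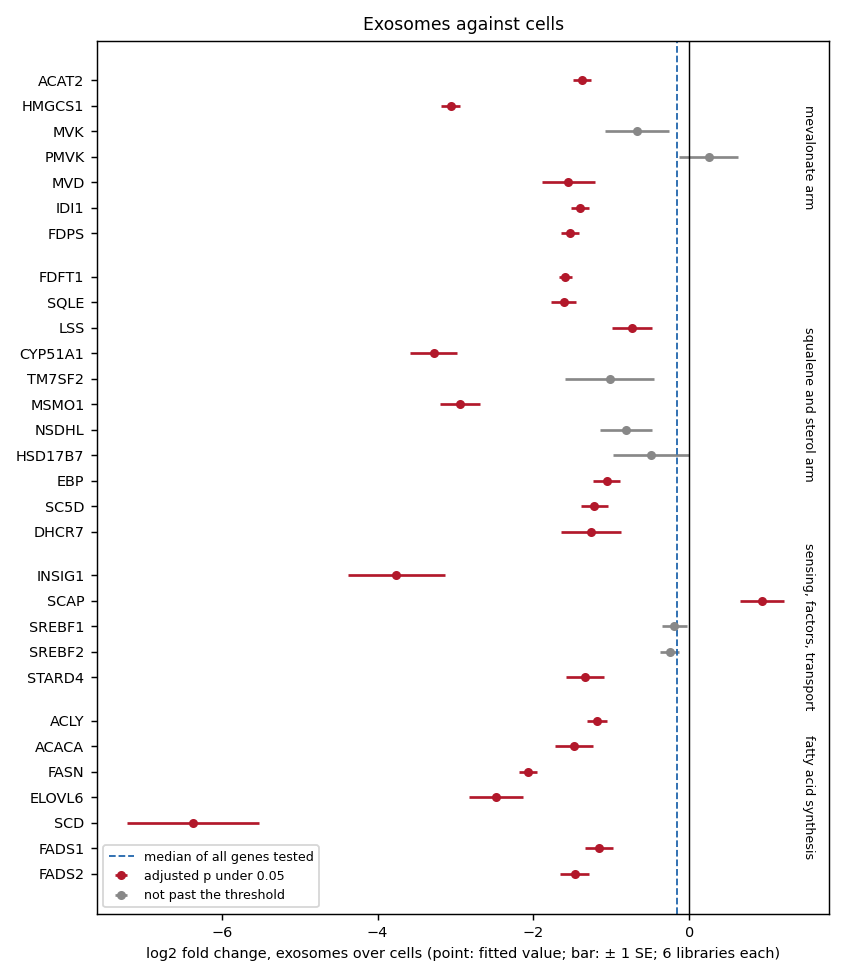
Fitted log2 fold change of exosomes over cells for each gene (points) with 1 SE (bars), 6 libraries in each compartment. Red points passed an adjusted p of 0.05 and grey points did not, the dashed line is the median of all genes at log2 -0.15, and SCAP is the single red point to the right of 0.

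All 7 genes of fatty acid synthesis and desaturation were lower in exosomes, with a median of log2 -1.48. ACLY, which frees acetyl-CoA from citrate in the cytosol, had 285 to 446 CPM in exosomes and 769 to 795 CPM in cells, 2.27-fold lower. ACACA, which makes malonyl-CoA, had 36 to 88.1 CPM in exosomes and 105 to 230 CPM in cells, 2.78-fold lower. FASN, the synthase that builds palmitate (ENSG00000169710, chr17:82078333-82098332), had 345 to 591 CPM in exosomes (median 417) and 1780 to 1950 CPM in cells (median 1880), 4.19-fold lower (log2 -2.07, SE 0.117). The groups of all 3 genes stood apart.

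ELOVL6 lengthens palmitate, and SCD (ENSG00000099194, chr10:100347124-100364834) puts a double bond into saturated fatty acids. ELOVL6 had 1.94 to 24 CPM in exosomes and 60.7 to 75 CPM in cells, 5.58-fold lower (log2 -2.48, SE 0.348), and log2 -3.37 without Ang exosome replicate 3. SCD had 0, 5 and 0 reads in Ang exosomes and 124, 190 and 0 reads in Con exosomes, against 18178, 19994 and 20668 reads in Ang cells and 18642, 18634 and 21929 reads in Con cells. It was thus even in cells, where it had 1790 to 1850 CPM, and present in some exosome libraries and absent from others. The fitted difference was log2 -6.37 (SE 0.845), log2 -9.16 in Ang libraries alone and log2 -3.58 in Con libraries alone, and log2 -10.02 without Ang exosome replicate 2, so its size is uncertain. FADS1 and FADS2, neighbouring genes on chromosome 11 that desaturate polyunsaturated fatty acids, fell 2.24-fold and 2.78-fold. FADS1 had 92.5 to 153 CPM in exosomes and 183 to 368 CPM in cells, and FADS2 had 79 to 173 CPM in exosomes and 220 to 390 CPM in cells.

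Per kilobase of exon, counting every annotated exon of a gene, the order of the levels differed between the compartments. In exosomes ACLY led with 66.1 ± 14 CPM per kilobase, followed by FASN with 47.7 ± 9.35, FDFT1 with 44 ± 5.77 and FDPS with 42 ± 6.32 CPM per kilobase (SD, n = 6). The SDs of each of these 4 and its neighbour overlap, so neighbours do not differ beyond their spread. In cells SCD led with 341 ± 4.48 CPM per kilobase, followed by HMGCS1 with 283 ± 9.51, FASN with 200 ± 6.06 and ACLY with 150 ± 2.03 CPM per kilobase (SD, n = 6). By this length those 4 stood apart from each other by more than their SDs. The order in both compartments depends on the length used. SCD had 5362 bases of exon and 5362 in its longest coding transcript, and ACLY had 5217 and 4339. HMGCS1 had 4702 and 3506 bases and FDFT1 5202 and 1890, so both would rise against SCD and ACLY by transcript length. SCD was in place 12 in exosomes, with 14.5 ± 22.6 CPM per kilobase.

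Within the group, the log2 difference varied with some traits of the genes. Among the 30 genes, those with a higher level in cells were lower in exosomes relative to cells (Spearman's rho of -0.64 between the mean cell CPM and the log2 difference, n = 30, a description, since cell CPM enters both measures), against -0.07 over 11776 genes. The log2 difference also went with the GC content of the longest coding transcript (rho 0.47, n = 30, and 0.29 over all genes). Over all genes the median ran from log2 -0.47 in transcripts under 40% GC to log2 0.41 at 60% or more, and 28 of the 30 genes lay below the median of the genes in their own GC range. The part of GC content in the difference was not tested. By location of the protein, assigned from general knowledge, 13 of the 19 genes for proteins of the ER membrane were lower and 1 higher (median log2 -1.22). Of the 11 genes of soluble proteins, 9 were lower and 0 higher (median log2 -1.40).

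**Figure D4:**
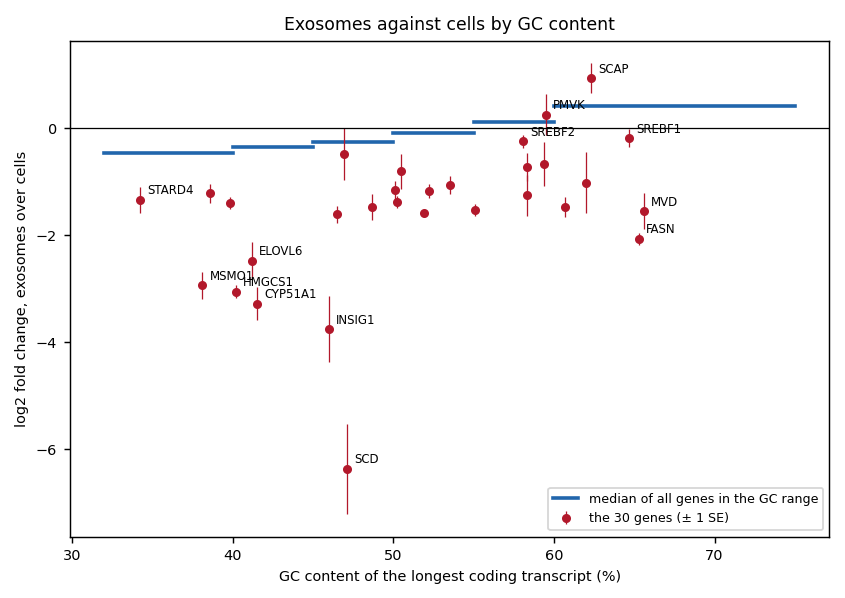
Fitted log2 fold change of exosomes over cells (vertical axis, bars are 1 SE) against the GC content of the longest coding transcript in percent (horizontal axis) for the 30 genes. Blue lines are medians of all genes within GC ranges, from log2 -0.47 to 0.41, and 28 of the 30 points lie below the line of their range.

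Other genes of lipid metabolism were counted in the same fit, where 19.5% of all genes were lower and 17.6% higher. Of 12 tested genes of other sterol pathway enzymes, 2 were lower and 0 higher (median log2 -0.33). Of 22 tested genes of sterol sensing, uptake and export, 6 were lower and 1 higher (median log2 -0.47). Among the lower genes was RNF139, an ER ubiquitin ligase (log2 -2.14, SE 0.451). RNF139 was rare in Ang exosomes, with 1.94 ± 3.36 CPM, against 15.7 ± 6.23 CPM in Con exosomes (SD, n = 3 each), so the size is uncertain. The higher gene was MYLIP, a ubiquitin ligase for the lipoprotein receptor (log2 1.19, SE 0.414). Of 25 tested genes of other fatty acid synthesis and elongation, 11 were lower and 2 higher (median log2 -0.71). ELOVL2, an elongase of long chains, was lower (log2 -2.87, SE 0.471). Its level in exosomes was near the floor, with 2.59 ± 4.48 CPM in Ang and 4.39 ± 1.38 CPM in Con (SD, n = 3 each), so the size is uncertain. ELOVL4, another elongase, was called lower but was rare, with 5.3 ± 6.13 CPM in Ang exosomes and no read in Con exosomes, against 7.56 ± 0.571 CPM in Ang cells and 8.83 ± 1.68 CPM in Con cells (SD, n = 3 each), so no fold is given. The desaturase gene SCD5 (log2 0.79, SE 0.182) and the elongase gene ELOVL5 (log2 0.62, SE 0.16) were higher.

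Between Ang and Con exosomes, none of the 30 genes passed the threshold. Reads were enough to test 24 of them, and PMVK, CYP51A1, TM7SF2, HSD17B7, ELOVL6 and SCD were under the count filter. Of the 24, 0 were called and 0 had an unadjusted p under 0.05 by edgeR, and DESeq2 called 0 of the 24, against 0.192% of all genes. The background was 0.012% of 8327 genes, a single gene that was lower in Ang, with 316 genes at an unadjusted p under 0.05. The median of the 24 was log2 -0.04. In 2 of them, SQLE and SREBF1, every Ang library was above every Con library, and in 2, FDFT1 and MSMO1, every Ang library was below, against 5.1% and 5.67% of all genes tested. SQLE had 157, 82.7 and 98.1 CPM in Ang exosomes and 76.3, 74.9 and 61.6 CPM in Con exosomes (log2 0.67, SE 0.346, edgeR adjusted p = 0.999). MSMO1 had 23.3, 5.51 and 8.01 CPM in Ang exosomes and 28.8, 47 and 28.5 CPM in Con exosomes (log2 -1.48, SE 0.672, edgeR adjusted p = 0.999). The Ang libraries of MSMO1 rested on 12, 3 and 4 reads.

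Between Ang and Con cells, where the depth was far greater, again 0 of the 30 genes were called by edgeR or by DESeq2. edgeR called 0.0% of 13331 genes, with 816 at an unadjusted p under 0.05, and DESeq2 called 60 genes, 0.45%. The median of the 30 was log2 -0.01, and 2 had an unadjusted p under 0.05. HMGCS1 had 1320, 1270 and 1300 CPM in Ang cells and 1390, 1340 and 1370 CPM in Con cells (log2 -0.09, SE 0.0317, edgeR adjusted p = 0.795). ELOVL6 had 75, 70.2 and 68.8 CPM in Ang cells and 63.4, 63.3 and 60.7 CPM in Con cells (log2 0.18, SE 0.0652, edgeR adjusted p = 0.795). In both genes the groups did not overlap but lay close together. In 4 genes every Ang library was above every Con library (ACAT2, TM7SF2, ACLY and ELOVL6) and in 3 below (HMGCS1, SREBF2 and ACACA). The background shares were 8.2% and 6.37%, among the 11788 genes tested in cells that were also listed in exosomes. ACACA had 205, 105 and 111 CPM in Ang cells and 206, 208 and 230 CPM in Con cells, so that 2 Ang libraries were low and the other was near the Con range (log2 -0.62, SE 0.276, edgeR adjusted p = 0.814). In LSS, by contrast, a single Ang library was low, with 50.7 CPM in Ang replicate 1 against 123 and 154 CPM in the other Ang cells. Con cells had 136, 178 and 143 CPM of LSS, so its groups overlapped.

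**Figure D5:**
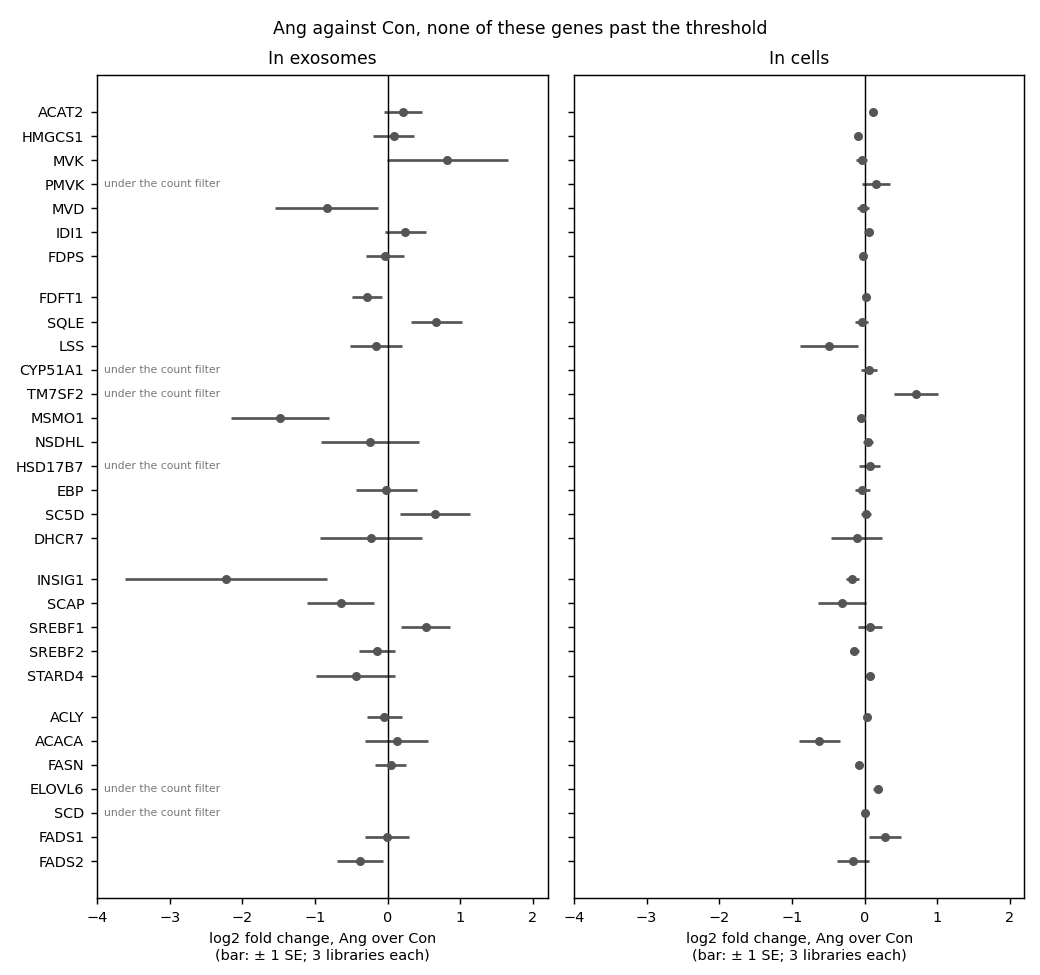
Fitted log2 fold change of Ang over Con with 1 SE in exosomes (left, 24 genes) and in cells (right, 30 genes), 3 libraries in each group. No point passed an adjusted p of 0.05, bars are longer in exosomes, and genes under the count filter are written as such.

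The difference between the Ang change in exosomes and that in cells was tested directly over all 12 libraries. Of the 30 genes, 0 were called by edgeR, with 4 at an unadjusted p under 0.05, against a background of 0.0254% called among 11811 genes (0.00847% higher and 0.0169% lower, 3 genes in all, with 971 at an unadjusted p under 0.05). The 4 were SCD, CYP51A1, MSMO1 and SQLE. CYP51A1 had 34.9, 47.8 and 16 CPM in Ang exosomes and 15.8, 5.87 and 3 CPM in Con exosomes, against 146, 162 and 187 CPM in Ang cells and 169, 155 and 149 CPM in Con cells. The change in exosomes was higher than that in cells by log2 1.93 (SE 0.605), on 18, 26 and 8 reads in Ang exosomes and 11, 4 and 2 reads in Con exosomes. The lowest Ang and the highest Con library were nearly level. Leaving out 1 library gave log2 1.53 (without Con exosome replicate 3) to log2 2.83 (without Con exosome replicate 1). DESeq2 called this difference for CYP51A1 (log2 1.96, adjusted p = 0.00634) and the opposite one for MSMO1 (log2 -1.44, adjusted p = 0.0148), where edgeR gave log2 -1.47 (SE 0.512). DESeq2 called 3.12% of all genes in this comparison, 368 genes. For MSMO1 leaving out 1 library gave log2 -2.33 (without Ang exosome replicate 1) to log2 -1.11 (without Ang exosome replicate 2). For SCD the difference was log2 -5.58 (SE 1.69, edgeR adjusted p = 0.483) and was called without Con exosome replicate 3 (log2 -6.17, edgeR adjusted p = 0.017). Leaving out 1 library gave log2 -12.88 (without Ang exosome replicate 2) to log2 -4.83 (without Con exosome replicate 2), so the size of the SCD difference is uncertain.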

How the data were processed

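RNA of exosomes and of AC16 cells was sequenced in 12 libraries, and grouping followed the sample titles. The values used were whole-number counts of reads per Ensembl gene as deposited by the authors, per the file headers, and counts of back-splice junction reads for circular RNAs. The submitters' processing notes name GRCh38, HISAT2 and StringTie. For the counting step, strand setting and annotation release nothing is given in the sources used here, so reads of overlapping genes may be shared. The lowest sum of a listed gene over the 6 libraries of a compartment was 7 reads.

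Symbols came from a table of gene names, coordinates and lengths from GENCODE release 29, and promoters from RefSeq. Counts were tested with edgeR 4.0.16 in R 4.3.3 (quasi-likelihood F test, robust, trimmed mean scaling, filterByExpr with a minimum count of 10 and total of 15, two-sided, adjusted p threshold 0.05), after tests on simulated data. Alternatives used limma 3.58.1 (voom) and DESeq2 1.42.0, other scalings, no filter, thinned cell counts, a replicate block and single libraries left out. The 30 genes and all lists were chosen with earlier results of these data known. The naming rule took all 30 genes and, from each other list, the 2 called genes of largest fold in each direction, or else the 2 of smallest p. Some genes that this rule names are not reported here. CPM carry the scaling of the fit to all 12 libraries, except the summed CPM of the cell type markers, which were scaled to raw library totals. Same-numbered libraries were compared for pairing. The limit given for a count of 0 covers counting error only. Each SE was taken from the log2 fold change and the F statistic of the edgeR fit, and includes the fitted spread between libraries.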

Additional observations from a re-analysis of the deposited data

Results flagged for a closer look

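Circular RNAs, closed by back-splicing, were not used in the comparisons above. In cells, 11 of 5179 listed circular RNAs lay within 7 of the 30 genes, with 47 junction reads in all, and 10 of the 11 were found in 1 library only. In exosomes 0 of 939 lay within them. Of the 11, 5 were found in Ang cells only (2 to 6 reads), 5 in Con cells only (2 to 3 reads) and 1 in both. In 4 the highest count in an Ang library was above 3 reads and above every Con library, which is what drew attention to them. They were 1 at FASN (chromosome 17, 82084513 to 82091272, GRCh38) with 4 reads in 1 Ang library and 0 in Con cells, 1 at SCAP (chromosome 3, 47425485 to 47428670) with 11 reads in 1 Ang library and 5 in 1 Con library, and 2 at FDFT1 (chromosome 8, 11808794 to 11838573 and 11826150 to 11838573) with 6 and 4 reads in the same Ang library and 0 in Con cells. None was seen in more than 1 Ang library, and no test was made.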

How the results depend on the processing

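No value past the threshold changed sign. Values short of it did: between exosomes and cells PMVK (log2 -0.01 without Con exosome replicate 3), TM7SF2 (log2 0.08 in Con libraries alone) and SREBF1 (log2 0.03 in Ang libraries alone), and in at least 1 setting 10 genes for Ang against Con in exosomes, 10 in cells and 10 for the difference of the changes. Between exosomes and cells, the number of the 30 called lower was 19 (voom, and Con libraries alone) to 24 (raw totals) and 20 to 23 with 1 library left out. The number called higher, 1, was 0 with raw totals, with voom, in Ang libraries alone and in Con libraries alone, and 0 to 1 with 1 library left out. Results for Ang or Con libraries alone came from contrasts in the fit to all 12 libraries, not from separate fits, and share its spread. LSS lost its call in 13 settings, DHCR7 in 8 and SCAP in 6, while ACACA and FADS1 lost it with voom and MVD in Con libraries alone. Over all genes, 1305 were higher and 1266 lower in Ang libraries alone, and 1318 higher and 1094 lower in Con libraries alone. With 1 library left out, 1826 to 2054 were higher and 1713 to 2500 lower.

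For Ang against Con in exosomes, the genes called higher and lower were 1 and 2 without a filter, 5 and 11 with DESeq2, 4 and 18 in a fit to all 12 libraries, and 0 lower with voom, with 0 to 1 higher and 1 to 4 lower when a library was left out. In cells DESeq2 called 26 higher and 34 lower, and leaving out a library gave 0 to 2 higher and 0 to 1 lower. For the difference of the changes, DESeq2 called 186 genes higher and 182 lower, 1 of the 30 in each direction. With voom 0 were higher and 1 lower, and with 1 library left out 0 to 6 were higher and 1 to 13 lower, with 0 to 1 of the 30 called lower. Same-numbered libraries did not pair: 18 pairs of deviations from group means correlated from -0.036 to 0.017. A replicate block gave 22 of the 30 lower between exosomes and cells, 0 genes lower for Ang against Con in exosomes, and 0 higher and 1 lower for the difference of the changes. Depth limits the exosome comparisons: 6 of the 30 could not be tested there, and the reasons for the other changes were not tested.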

Other observations

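In exosomes against cells, 3 of 21 tested genes of fatty acid oxidation were lower and 1 higher, with a median of log2 -0.43, where 19.5% of all genes were lower and 17.6% higher. ETFDH, which passes electrons from fatty acid oxidation to the respiratory chain, had 18.1 ± 5.24 CPM in exosomes and 41 ± 3.37 CPM in cells, and HADHA, a subunit of the mitochondrial trifunctional enzyme, had 106 ± 33.4 CPM in exosomes and 181 ± 6.83 CPM in cells. ETFB, a subunit of the electron transfer flavoprotein, had 111 ± 23.4 CPM in exosomes and 58.4 ± 7.16 CPM in cells (SD, n = 6 each). Of 26 genes of the ER translocon and folding, 10 were lower and 5 higher against the same shares, with a median of log2 -0.33. PDIA6, a disulfide isomerase (log2 -1.31, SE 0.4), and STT3A, a catalytic subunit of glycosylation (log2 -1.09, SE 0.303), were lower. SSR4, a translocon-associated subunit (log2 1.10, SE 0.219), and SPCS1, a signal peptidase subunit (log2 0.86, SE 0.246), were higher.

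Between Ang and Con, 0 genes of the 5 other lists were called in exosomes or in cells (edgeR). The smallest p in exosomes was for HACD3, a dehydratase of fatty acid elongation, with 66.4 ± 12.1 CPM in Ang and 121 ± 21.3 CPM in Con (SD, n = 3 each, log2 -0.86, SE 0.317, edgeR adjusted p = 0.999). In cells it was for SEC61G, a translocon subunit, with 47.2 ± 2.34 CPM in Ang and 37.3 ± 1.87 CPM in Con (SD, n = 3 each, log2 0.33, SE 0.0749, edgeR adjusted p = 0.781).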
